A study of Homo sapiens with 16 samples.

Results

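DDIT4 and 9 further genes named as regulators of mTORC1 were followed through a time course of latrunculin B (LatB), a drug that depolymerises actin, in human pancreatic progenitors. The set holds DDIT4, DDIT4L, SESN1, SESN3, DEPTOR, TSC22D3, TSC1, TSC2, AKT1S1 and RHEB, 10 of the 35810 genes counted. They were listed by name and chosen by the early rise of DDIT4 in the same libraries. The values at 3 h and 6 h against the control at 0 h were used for that choice, so they are given as a description with no p, and counts of genes past the threshold in them support nothing. All 10 genes passed the filter on low counts, as did 16705 genes in all.

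The cells were derived from SA121, an established human embryonic stem cell line that carries an NGN3-GFP reporter, and were treated on day 19 of differentiation. There were 6 groups. Control 0 h had 3 libraries, and control 24 h, kept for 24 h in the vehicle DMSO, had 2. LatB at 0.5 µM was given for 3, 6, 12 or 24 h, with 2 libraries at 12 h and 3 at each of the other times. Polyadenylated RNA was sequenced. The labels tag the cells of 0 h as DMSO too, while the series text says they were harvested before treatment. The LatB libraries of 3, 6 and 12 h were compared with control 0 h, and have no time-matched vehicle among the libraries analysed. All libraries come from 1 cell line, and nothing in the labels says whether replicates were separate cultures, so p-values measure the spread between these libraries.

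mTORC1 is a kinase complex on the lysosome that promotes protein synthesis and growth when amino acids and growth factors are at hand. Its direct activator is the small GTPase Rheb (RHEB), which the TSC1-TSC2 complex switches off. DDIT4, also called REDD1, and its relative DDIT4L are stress-induced proteins that restrain mTORC1 through TSC1-TSC2. The sestrins act on the amino acid branch, where they hold back the GATOR2 complex. DEPTOR and AKT1S1 (PRAS40) bind mTORC1 itself and inhibit it. TSC22D3, also called GILZ, is a leucine zipper protein best known as a glucocorticoid target and as an anti-inflammatory factor. In spite of its name it is no part of the TSC1-TSC2 complex.

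DDIT4, TSC22D3 and SESN1 are shown here with the genomic sequence just before their start sites: DDIT4 because it led to the set, and TSC22D3 and SESN1 because each uses more than 1 start site and the transcripts from these differed over the time course. The sequences are those of RefSeq on GRCh38.p14, in which 8 of the 10 genes had an entry. Each is the stretch of the 250 bases before a RefSeq start that lies in no annotated UTR or coding exon, written 5′ to 3′ on the strand of the gene. Capitals mark matches to 6 short motifs searched on both strands in the whole 300-base window around the start: the TATA box (TATAAA), a FOXO motif (TGTTTAC), the core of the hypoxia response element (ACGTG), the E-box (CACGTG, which holds that core), the cAMP response element (TGACGTCA) and the CCAAT box (CCAAT).
DDIT4-201, chr10:72273674-72273918, strand plus: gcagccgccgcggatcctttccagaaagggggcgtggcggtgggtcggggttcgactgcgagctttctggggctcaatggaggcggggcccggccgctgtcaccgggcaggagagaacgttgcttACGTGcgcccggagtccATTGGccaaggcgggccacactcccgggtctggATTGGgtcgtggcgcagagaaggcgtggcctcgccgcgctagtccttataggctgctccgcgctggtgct
TSC22D3-206, chrX:107717136-107717312, strand minus: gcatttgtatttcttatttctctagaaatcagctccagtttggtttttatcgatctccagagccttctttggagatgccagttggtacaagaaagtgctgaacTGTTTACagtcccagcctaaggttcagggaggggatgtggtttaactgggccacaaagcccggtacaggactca
TSC22D3-205, chrX:107716546-107716689, strand minus: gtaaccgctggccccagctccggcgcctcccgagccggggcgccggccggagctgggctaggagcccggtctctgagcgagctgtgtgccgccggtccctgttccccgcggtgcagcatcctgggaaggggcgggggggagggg
SESN1-202, chr6:109009556-109009802, strand minus: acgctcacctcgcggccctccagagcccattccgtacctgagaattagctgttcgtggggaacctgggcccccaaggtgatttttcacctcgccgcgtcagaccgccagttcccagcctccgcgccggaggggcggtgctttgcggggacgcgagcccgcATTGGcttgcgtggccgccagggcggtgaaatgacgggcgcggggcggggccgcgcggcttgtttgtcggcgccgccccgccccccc
SESN1-204, chr6:109094847-109095096, strand minus: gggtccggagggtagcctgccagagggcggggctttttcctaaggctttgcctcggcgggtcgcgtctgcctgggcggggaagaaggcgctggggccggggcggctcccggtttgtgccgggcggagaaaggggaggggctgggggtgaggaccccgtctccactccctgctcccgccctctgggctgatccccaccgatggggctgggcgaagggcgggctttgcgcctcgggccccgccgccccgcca

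The DDIT4 window held 1 hypoxia response element core, 125 to 121 bases before the start, and 2 CCAAT boxes in reverse orientation, 108 to 104 and 75 to 71 bases before it. That core occurred in 21.4% and the CCAAT box in 34.6% of the 35116 RefSeq promoter windows of the same length, so both are common. The window of TSC22D3-206 held a FOXO motif, found in 3.42% of all windows, and a TATA box, found in 11.5%, which lies 29 to 24 bases before the start in a stretch not printed. The window of TSC22D3-205 held neither, and none of the other 4 motifs. The 2 SESN1 windows differed by 1 CCAAT box, present before SESN1-202 and not matched before SESN1-204. The E-box occurred in 7.26% and the cAMP response element in 1.85% of all windows, and neither occurred in these 5. A match to a few letters is a description of the sequence and shows no binding.

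The libraries held 23609727 to 33515398 estimated reads. Of 10 markers of pancreatic progenitors, 9 were above 1 CPM (counts scaled to a library total of 1000000) in the mean of every group, among them PDX1 and SOX9, and PTF1A was near 0. The 12 h libraries were less alike than replicates elsewhere: across genes, their log2 CPM correlated at 0.962 (Pearson), and those of the other groups at 0.976 to 0.982. The summed level of 5 mesenchyme markers was 145.7 CPM in replicate 1 of 12 h and 845 CPM in replicate 2, against 55.8 to 199.1 CPM in the other 14 libraries. Endothelial markers, 3 genes, summed to 9.58 and 40.2 CPM in the same 12 h libraries, against 3.68 to 16.1 CPM elsewhere. Progenitor markers summed to 1411 and 1155 CPM in replicates 1 and 2 of 12 h, and 3 intestine markers to 203 and 100 CPM. Hepatocyte markers, 5 genes, summed to 348 and 714 CPM in the same libraries, against 209.5 to 392 CPM elsewhere. Most of that difference was TTR (198.8 and 586 CPM in replicates 1 and 2), and APOB went the other way (107.9 and 66.7 CPM). The part of cells with these markers in the 12 h results was not tested. Values without 1 of the 12 h libraries stand beside some of the 12 h results, and not beside the single genes named from the lists. In bulk RNA, a change in the number of cells of a type and a change in RNA per cell cannot be told apart.

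Expression of DDIT4 (ENSG00000168209.6, chr10:72273919-72276036, plus strand, GENCODE 44 on GRCh38) was highest at 3 h and 6 h and declined through 12 h and 24 h without reaching the control level. Its CPM was 73.7, 64.1 and 68.1 in the libraries of control 0 h and 65.1 and 62.3 in those of control 24 h. It was 270, 287 and 339 at 3 h of LatB and 261, 278 and 342 at 6 h. At 12 h it was 179.9 and 164.4, and at 24 h 105.8, 104.6 and 100.7. Thus all 11 treated libraries lay above all 5 control libraries, the groups of 3 h and 6 h overlapped each other, and 12 h and 24 h were separate steps below them. On the log2 scale the difference from control 0 h was 2.12 (SE 0.10) at 3 h and 2.10 (SE 0.10) at 6 h, about 4.36 and 4.28 times the control. These values chose the set and carry no p. DDIT4-201, the coding transcript, held at least 91.1% of the TPM of the gene in every library, so the change was that of the coding transcript.

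The later time points were tested. At 12 h, DDIT4 was 2.51 times its level at 0 h, a log2 fold change of 1.33 (SE 0.11, edgeR quasi-likelihood test, adjusted p = 1.95e-06). The control libraries of that test are also those of the 3 h and 6 h values. The groups compared at 24 h, LatB and control 24 h, share no library with them, although the spread was estimated from all 16 libraries. DDIT4 was still 1.63 times the vehicle level at 24 h, a log2 fold change of 0.70 (SE 0.11, adjusted p = 0.000355 by edgeR). From 12 h to 24 h of LatB it dropped by 0.73 on the log2 scale (SE 0.11, adjusted p = 0.00218 by edgeR). The effect at 24 h was smaller than that at 12 h, by a difference of -0.62 (SE 0.16, adjusted p = 0.0433 by edgeR), but this call depended on the setting, with adjusted p-values from 0.00508 to 0.16 and a pass in 9 of 22 fits. Without LatB, DDIT4 did not differ detectably between 24 h and 0 h (log2 fold change -0.11, SE 0.11, adjusted p = 0.924 by edgeR).

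**Figure D1:**
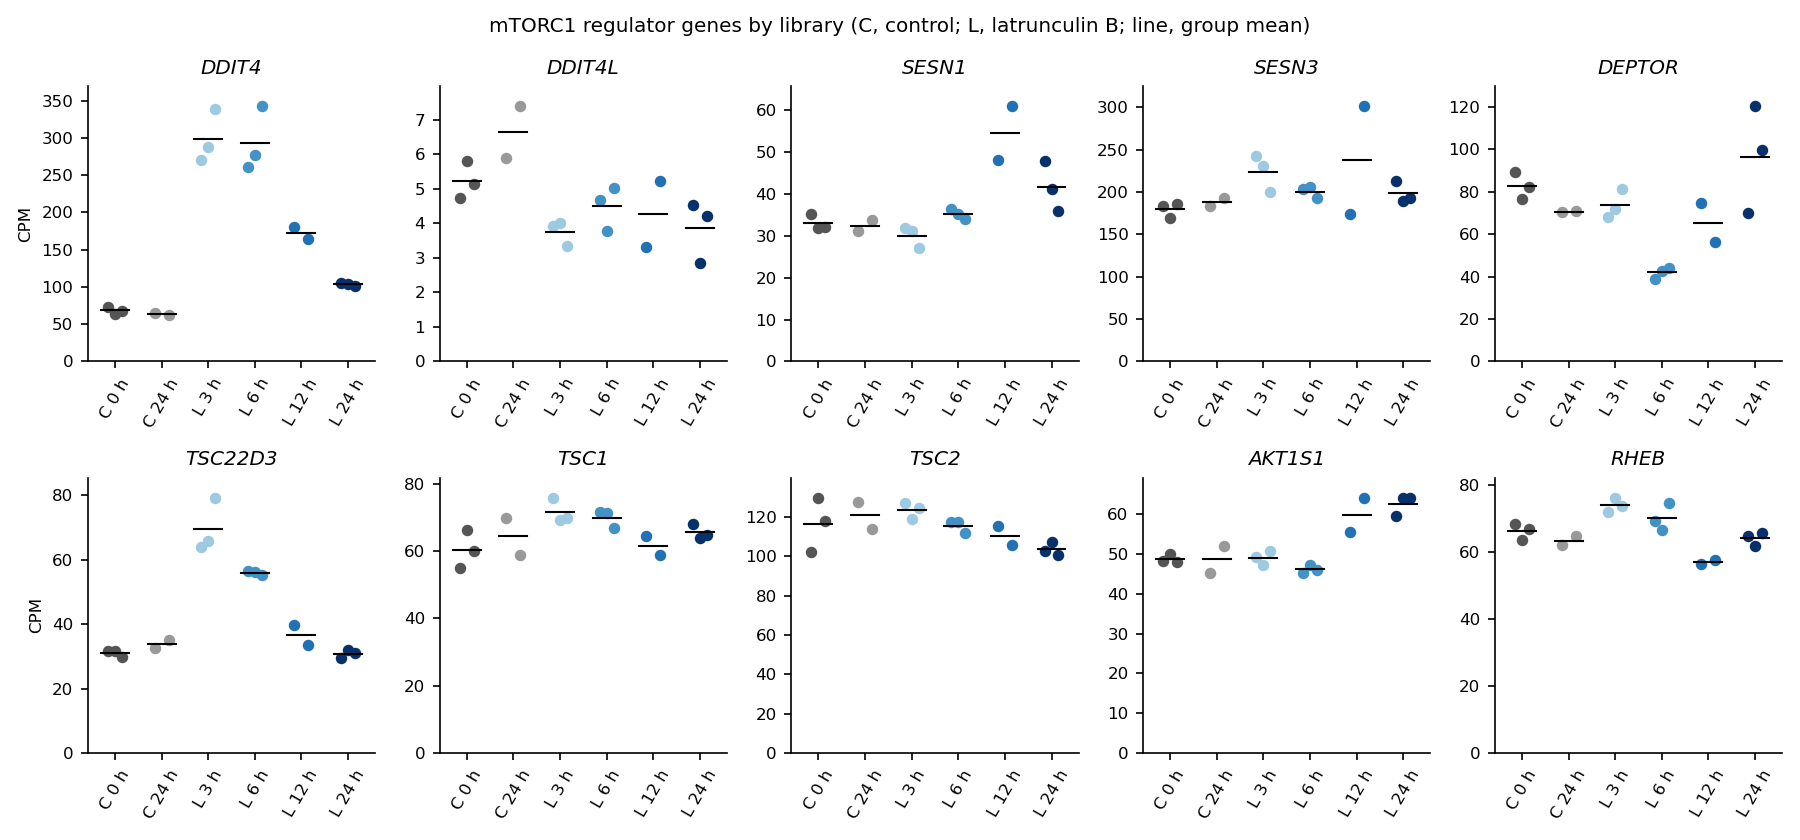
CPM of the 10 genes in each of the 16 libraries, with the 6 groups along the x axis (C, control; L, latrunculin B), 1 point per library and a line at the group mean. DDIT4 lies between 62.3 and 73.7 CPM in the controls and between 100.7 and 342 CPM under LatB, and the 12 h libraries of SESN3 lie far apart.

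Its relative DDIT4L was a gene of low expression that was lower, not higher, at 24 h. It had 76 to 236 estimated reads per library, and 4.74, 5.80 and 5.13 CPM at 0 h. Under LatB it was 3.93, 4.01 and 3.34 CPM at 3 h, below every library of 0 h (log2 difference -0.48, SE 0.20, no test). At 6 h it was 4.68, 3.78 and 5.02 CPM, which overlapped 0 h. The 12 h libraries held 3.32 and 5.24 CPM, which overlapped the control, and the test was not passed (log2 fold change -0.28, SE 0.23, adjusted p = 0.369 by edgeR). The 24 h libraries held 4.54, 2.85 and 4.22 CPM against 5.90 and 7.39 CPM in the vehicle, and it fell by 0.78 on the log2 scale (SE 0.22, adjusted p = 0.0128 by edgeR). The call was lost without replicate 2 of control 24 h (adjusted p = 0.118) and against control 0 h (adjusted p = 0.103).

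TSC22D3 (ENSG00000157514.18, chrX:107713221-107777342, minus strand) resembled DDIT4 at the early times and then came back to the control level. Its CPM was 31.6, 31.5 and 29.8 at 0 h, 63.9, 65.8 and 79.2 at 3 h of LatB, and 56.5, 56.2 and 55.3 at 6 h. Each of these 6 treated libraries lay above each control, with log2 differences from 0 h of 1.17 (SE 0.08) and 0.85 (SE 0.08), given without a test. At 12 h it was 39.8 and 33.6 CPM, a log2 fold change of 0.24 (SE 0.09) that just missed the threshold (adjusted p = 0.0505 by edgeR). Without replicate 2 of 12 h, the library with more mesenchyme marker RNA, the adjusted p was 0.0172. At 24 h it was 29.6, 31.9 and 31.1 CPM, below the 32.5 and 34.9 CPM of the vehicle but not called (log2 fold change -0.13, SE 0.09, adjusted p = 0.278 by edgeR).

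Most of the early difference of TSC22D3 lay in 1 of its transcripts. TSC22D3-206 and TSC22D3-205 begin at neighbouring start sites on chromosome X and together held most of the TPM (abundance scaled for transcript length and to a library total of 1000000) of the gene. TSC22D3-206 stood at 11.7, 8.86 and 10.8 TPM at 0 h, at 31.1, 33.5 and 40.2 TPM at 3 h and at 25.3, 24.2 and 25.1 TPM at 6 h, so that its mean was 3.34 and 2.37 times that of the control. TSC22D3-205 stood at 15.5, 17.0 and 14.3 TPM at 0 h, at 16.01, 16.1 and 15.6 TPM at 3 h and at 16.4, 15.6 and 13.7 TPM at 6 h, within the range of the controls or just below it. The other transcripts of the gene together stood at 1.95 to 2.91 TPM at 0 h, 4.98 to 9.32 TPM at 3 h and 4.90 to 5.92 TPM at 6 h, also above the control. Of the difference between the mean TPM of the gene and that of 0 h, TSC22D3-206 held 82.9% at 3 h and 85.5% at 6 h, and the other transcripts 15.97% and 16.5%. The share of TSC22D3-206 in the TPM of the gene went from 30.8 to 40.3% at 0 h to 56.8 to 61.7% at 3 h and 52.99 to 57.0% at 6 h. At 12 h and 24 h it was 32.1 to 41.4%. The share of TSC22D3-205, the more abundant transcript over all libraries, did not differ detectably from its control at 12 h (55.8% against 54.4%, exact permutation test, two-sided, p = 0.7) or 24 h (56.1% against 55.9%, exact permutation test, p = 1.0). With 2 and 3 libraries that test cannot go below 0.1. The start site of TSC22D3-206 is the one whose sequence, printed above, holds the FOXO motif, and no value here bears on binding there.

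**Figure D2:**
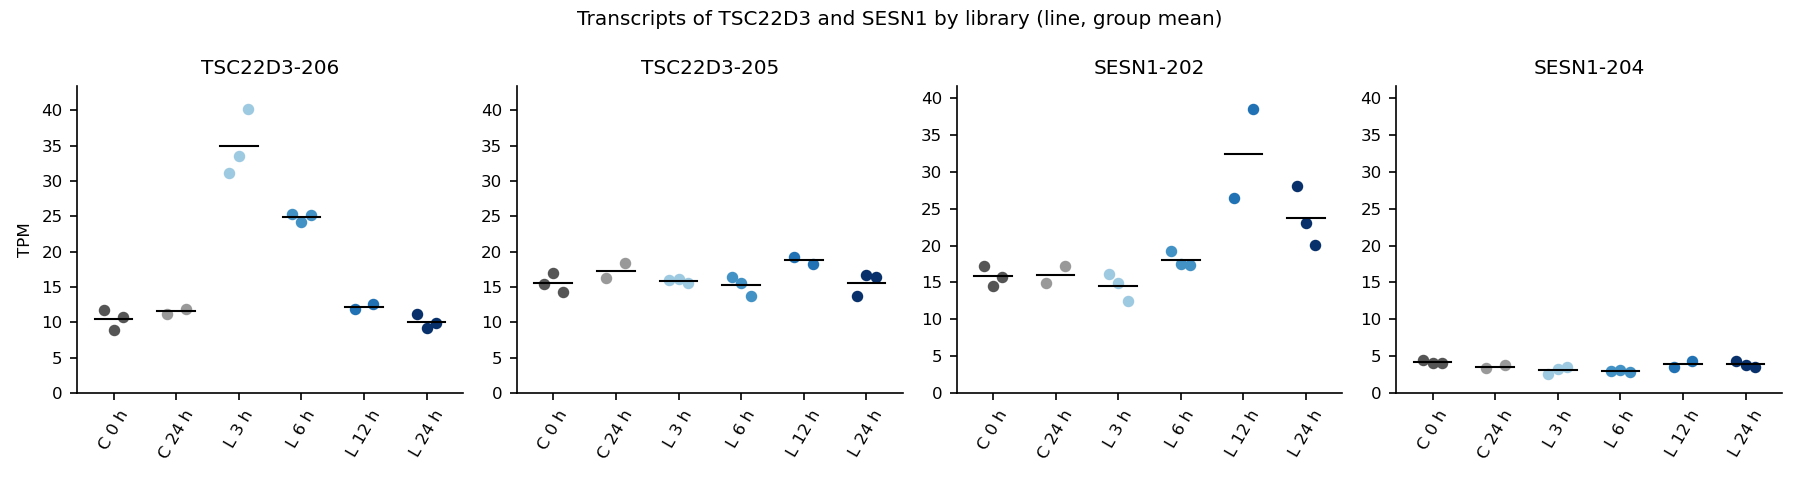
TPM of the transcripts TSC22D3-206, TSC22D3-205, SESN1-202 and SESN1-204 in each library, with the 6 groups along the x axis (C, control; L, latrunculin B) and a line at the group mean; panels of the same gene share 1 scale. TSC22D3-206 is at 24.2 to 40.2 TPM at 3 h and 6 h against 8.86 to 12.0 TPM in the controls, and SESN1-202 is highest at 12 h.

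SESN1 (ENSG00000080546.14, chr6:108984309-109094846, minus strand), a sestrin known as a p53 and FOXO target, moved late. Its CPM was 35.0, 31.9 and 32.1 at 0 h and 31.0 and 33.6 in the vehicle at 24 h, and it stayed between 27.1 and 36.3 CPM at 3 h and 6 h of LatB. Its 12 h libraries reached 48.1 and 60.8 CPM, above every other library of the earlier times, and rose by 0.72 on the log2 scale (SE 0.12, adjusted p = 0.000353 by edgeR). The call held in all 18 fits, and without replicate 2 of 12 h the log2 fold change was 0.54. Those of 24 h stood at 47.7, 41.2 and 35.8 CPM, still above both vehicle libraries (log2 fold change 0.36, SE 0.12, adjusted p = 0.0254 by edgeR), although this call held in 10 of 18 fits and was lost without either vehicle library or without replicate 1 of 24 h (adjusted p = 0.175, 0.0572 and 0.092). That replicate, with the highest SESN1 of its group, also had the highest mesenchyme and hepatocyte marker sums of the group (199.1 against 55.8 and 105.0 CPM, and 391.5 against 256.9 and 249.3 CPM), and replicate 2 of 12 h was highest in SESN1 and in both sums too. The hepatocyte marker APOB was instead the lowest of its group in both libraries (65.5 CPM at 24 h and 66.7 CPM at 12 h). Both libraries also had the highest endothelial and the lowest progenitor and intestine marker sums of their groups. The part of cells with these markers in the SESN1 result was not tested. From 12 h to 24 h it fell by 0.39 (SE 0.12, adjusted p = 0.044 by edgeR), a call that was lost without replicate 2 of 12 h (adjusted p = 0.356) and without replicate 2 or 3 of 24 h (adjusted p = 0.107 and 0.148).

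The later rise of SESN1 was seen in the transcript of 1 start site. SESN1-202, the shorter transcript, stood at 17.2, 14.5 and 15.7 TPM at 0 h, 26.4 and 38.6 TPM at 12 h and 28.1, 23.1 and 20.0 TPM at 24 h, against 14.9 and 17.2 TPM in the vehicle. SESN1-204, which starts farther upstream, was at 2.56 to 4.42 TPM in all 16 libraries. Its libraries of 12 h (3.59 and 4.33 TPM) and 24 h (3.51 to 4.38 TPM) overlapped those of their controls, and those of 3 h and 6 h (2.56 to 3.51 TPM) lay below those of 0 h (4.02 to 4.42 TPM). SESN1-202 held 80.4% of the TPM of the gene at 12 h against 64.3% at 0 h, and 75.7% at 24 h against 64.5% in the vehicle. In both comparisons the libraries did not overlap and the exact permutation test gave p = 0.1, two-sided, the smallest that 2 against 3 libraries allow.

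SESN3, the sestrin of the set with the higher CPM, was not called at 12 h or 24 h by edgeR. It was 183.0, 169.9 and 186.3 CPM at 0 h, 242, 230.5 and 199.7 CPM at 3 h, and 203, 206 and 193 CPM at 6 h. At 12 h the libraries disagreed, with 174 CPM in replicate 1 and 301 CPM in replicate 2, the library with more mesenchyme and hepatocyte marker RNA. The pooled log2 fold change of 0.40 (SE 0.16, adjusted p = 0.06 by edgeR) was thus decided by 1 library: it was -0.045 without replicate 2 and 0.74 without replicate 1 (adjusted p = 5.82e-05). DESeq2 and the fit with a length offset called it with both libraries (adjusted p = 0.0351 and 0.0452). After 24 h it was 212.8, 189.9 and 192.7 CPM against 184.0 and 192.7 CPM (log2 fold change 0.08, SE 0.16, adjusted p = 0.736 by edgeR).

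The inhibitors that sit in mTORC1 differed from each other. DEPTOR had the largest early decrease of the set, at 6 h. Its CPM was 89.0, 76.4 and 82.2 at 0 h, 68.0, 72.0 and 81.1 at 3 h, and 38.9, 42.8 and 44.2 at 6 h, where it was 0.509 times the control (log2 difference -0.98, SE 0.16, no test). At 12 h it was 74.5 and 56.4 CPM, and the log2 fold change of -0.34 (SE 0.18) was not called (adjusted p = 0.157 by edgeR). At 24 h the 3 libraries were spread over 69.9, 120.2 and 99.5 CPM around the 70.3 and 70.8 CPM of the vehicle. The log2 fold change of 0.45 (SE 0.17) missed the threshold (adjusted p = 0.0535 by edgeR), passed it without replicate 1 of 24 h (adjusted p = 0.00221), and passed in 3 of 18 fits. The summed level of endocrine markers was 72.2 CPM in replicate 1 of 24 h and 247.5 and 225 CPM in replicates 2 and 3, against 71.1 and 84.4 CPM in the vehicle. This sum moved with DEPTOR, and its part in the result was not tested. Within the sum, NEUROG3 was above the vehicle in every 24 h library (25.6 to 59.8 against 2.07 to 2.35 CPM). CHGA lay on both sides of it (26.2 to 101.8 against 50.4 to 60.9 CPM), lowest in replicate 1. The difference between the effects on DEPTOR at 24 h and 12 h, 0.79 (SE 0.25), was not called either (adjusted p = 0.0867 by edgeR, a pass in 3 of 22 fits).

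AKT1S1 was close to its controls early and higher late. It lay between 45.2 and 52.1 CPM in the 5 controls and between 47.1 and 50.8 CPM at 3 h. At 6 h it was 45.2 to 47.2 CPM, just below the 48.1 to 50.1 CPM of 0 h (log2 difference -0.08, SE 0.06, no test). Both 12 h libraries, at 55.6 and 64.0 CPM, lay above every control, and AKT1S1 rose by 0.29 on the log2 scale (SE 0.07, adjusted p = 0.0053 by edgeR), a call lost without replicate 2 of 12 h (adjusted p = 0.0871) and in a fit of the compared groups alone (adjusted p = 0.067). After 24 h it was 59.6, 64.1 and 64.0 CPM against 45.2 and 52.1 CPM, a rise of 0.36 (SE 0.07, adjusted p = 0.00114 by edgeR) that held in all 18 fits. Of the 10 genes, DDIT4 and AKT1S1 were those whose call at 24 h held in every fit.

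TSC1 and TSC2, the complex through which DDIT4 acts, changed little. TSC1 was 54.9, 66.2 and 59.9 CPM at 0 h, and 69.1 to 75.7 CPM at 3 h and 66.8 to 71.4 CPM at 6 h, with log2 differences of 0.24 (SE 0.08) and 0.21 (SE 0.08), given without a test. At 12 h and 24 h its log2 fold changes were 0.03 (SE 0.09) and 0.03 (SE 0.08), neither called (adjusted p = 0.834 and 0.814 by edgeR). On values scaled for length its direction at both times turned, to -0.06 and -0.23 with a length offset, also not called. TSC2 was 102.0, 129.6 and 117.7 CPM at 0 h and 105.6 to 127.2 CPM through 12 h. At 24 h it was 102.5, 107.4 and 100.8 CPM against 127.6 and 113.8 CPM, and fell by 0.22 (SE 0.08, adjusted p = 0.0474 by edgeR), a call that held in 7 of 18 fits and was lost without replicate 1 of control 24 h (adjusted p = 0.378) and without any 1 of the 24 h libraries (adjusted p = 0.0546 to 0.12). The files split these 2 genes over 47 and 68 transcripts, and their transcript shares are not described.

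RHEB, the activator that TSC1-TSC2 inhibits, was 68.2, 63.6 and 66.9 CPM at 0 h. It was 72.1 to 76.2 CPM at 3 h (log2 difference 0.16, SE 0.05, no test) and 66.7 to 74.7 CPM at 6 h. By 12 h it was 56.4 and 57.6 CPM, below all 14 other libraries, and fell by 0.22 (SE 0.05, adjusted p = 0.00708 by edgeR). The call was lost against control 24 h in place of control 0 h (adjusted p = 0.0614) and in a fit of the compared groups alone (adjusted p = 0.0545). At 24 h it was back at 64.8, 61.9 and 65.5 CPM against 62.0 and 64.7 CPM in the vehicle (log2 fold change 0.02, SE 0.05, adjusted p = 0.829 by edgeR). RHEB has processed pseudogenes, with which a program that assigns reads to transcripts may share its reads. RHEB-204, its transcript of highest TPM, held 68.3% of the TPM of the gene at 12 h against 69.6% at 0 h (exact permutation test, two-sided, p = 0.7). RHEB-201 held 24.1% against 23.0%. By estimated reads RHEB-204 did not lead at 12 h, with 46.3 and 45.1% of the gene against 48.4 and 49.7% for RHEB-201.

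**Figure D3:**
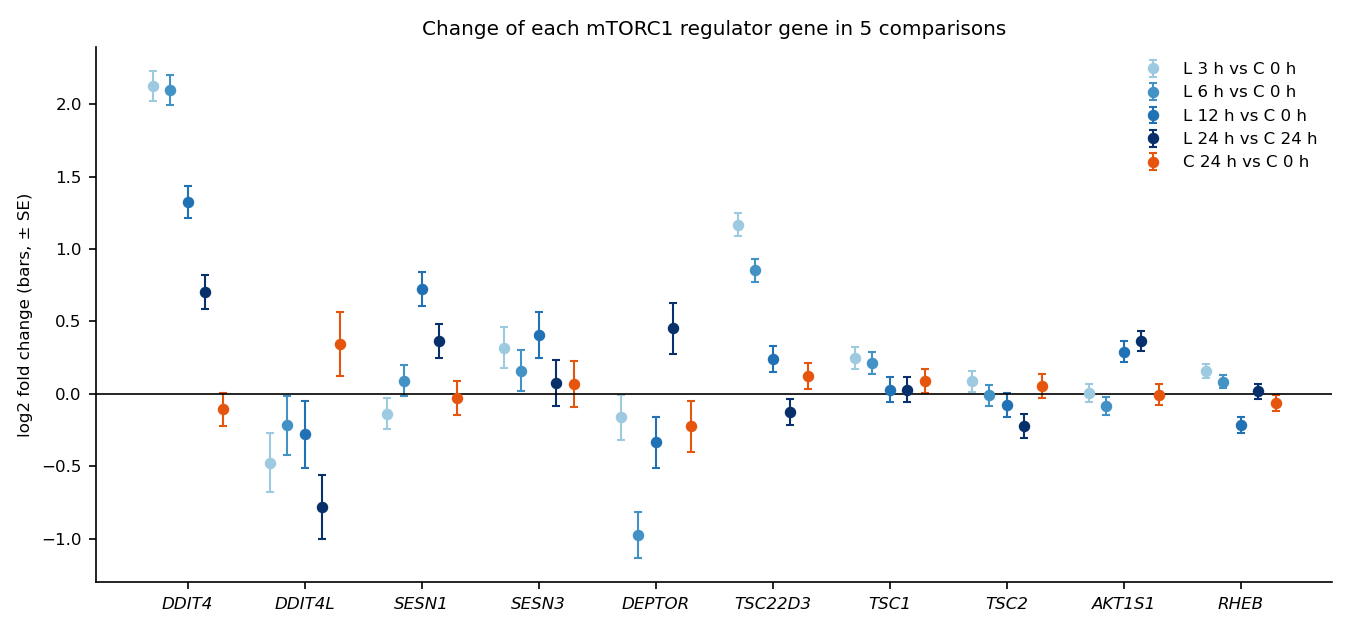
Log2 fold change of each of the 10 genes in 5 comparisons, as points with bars of ± 1 SE from the edgeR fit of all 16 libraries (C, control; L, latrunculin B). DDIT4 goes from 2.12 at 3 h to 0.70 at 24 h, DEPTOR is lowest at 6 h (-0.98), and the control comparison in orange stays within 0.35 of 0.

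By count, 4 of the 10 genes were called at 12 h (DDIT4, SESN1 and AKT1S1 higher, RHEB lower), where 35.8% of all genes were called. At 24 h 5 were called (DDIT4, SESN1 and AKT1S1 higher, DDIT4L and TSC2 lower), where 40.8% of all genes were. Shares of this size in a set of 10 are near those of the genes at large, so the number of calls is no result about the set. The median log2 fold change of the 10 genes was 0.13 at 12 h and 0.05 at 24 h, against 0.01 and 0.01 for all genes tested. At 3 h 4 genes passed the same threshold (DDIT4, TSC22D3, TSC1 and RHEB, all higher; 31.6% of all genes passed) and at 6 h 4 did (DDIT4, TSC22D3 and TSC1 higher, DEPTOR lower; 43.3% of all genes passed), from which nothing is read since these contrasts chose the set. From 12 h to 24 h of LatB, 2 were called, DDIT4 and SESN1, both lower (11.7% of all genes called). The effects at 24 h and 12 h differed for 1, DDIT4 (4.33% of all genes called). None of the 10 was called between the controls by edgeR, where 0.251% of all genes were called and 1414 had an unadjusted p under 0.05. None of the 10 was called there by DESeq2 or by either limma fit, and none of them had an unadjusted p under 0.05 in edgeR.

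Levels of different genes were compared per length, in TPM. In the cells of 0 h the order was RHEB (113.6 ± 4.79, SD, n = 3), TSC2 (70.1 ± 6.32), DDIT4 (62.2 ± 3.95), DEPTOR (51.9 ± 4.19), SESN3 (32.7 ± 1.53), TSC22D3 (28.6 ± 0.597), SESN1 (24.7 ± 1.59), AKT1S1 (23.5 ± 0.161), TSC1 (18.8 ± 1.35) and DDIT4L (3.804 ± 0.346). SESN1 and AKT1S1 lay within their spread of each other, and the libraries of TSC2 and DDIT4 overlapped. At 3 h of LatB DDIT4 was at 252 ± 28.3 TPM (n = 3), the highest of the 10, with RHEB at 123.6 ± 4.46 TPM. At 24 h RHEB was again above it, at 111.1 ± 3.799 TPM against 90.9 ± 4.46 TPM. The place of RHEB rested on how reads were split between its transcripts. At 0 h RHEB-204 stood at 79.1 TPM from 31.7 CPM, and RHEB-201 at 26.1 TPM from 31.4 CPM. In CPM, which is not scaled for length, RHEB was not above DDIT4, at 66.2 against 68.6 at 0 h and 64.1 against 103.7 at 24 h.

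The 5 genes outside the set whose log2 CPM followed that of DDIT4 most closely over the 16 libraries, among 10502 genes with a mean log2 CPM of at least 3, were RASSF10 (Pearson r = 0.986), FOXO1 (0.986), TIPARP (0.985), FST (0.985) and AMD1 (0.983). The libraries fall into groups by treatment, so these values describe a shared time course and carry no p. FOXO1 encodes a transcription factor that insulin signalling through AKT holds out of the nucleus, and it was at 47.6 ± 1.60 CPM at 0 h, 127.0 ± 4.90 at 3 h, 111.3 ± 3.17 at 6 h, 78.4 ± 8.06 at 12 h (n = 2) and 59.1 ± 2.82 at 24 h (n = 3 unless given). FST encodes follistatin, a secreted antagonist of activin, and went from 6.06 ± 0.246 CPM at 0 h to 90.6 ± 22.3 at 6 h and 11.7 ± 3.26 at 24 h. AMD1 encodes an enzyme of polyamine synthesis and had the smallest ratio of highest to lowest group mean of the 5, from 83.6 ± 4.58 CPM at 0 h to 163.8 ± 8.52 at 3 h.

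**Figure D4:**
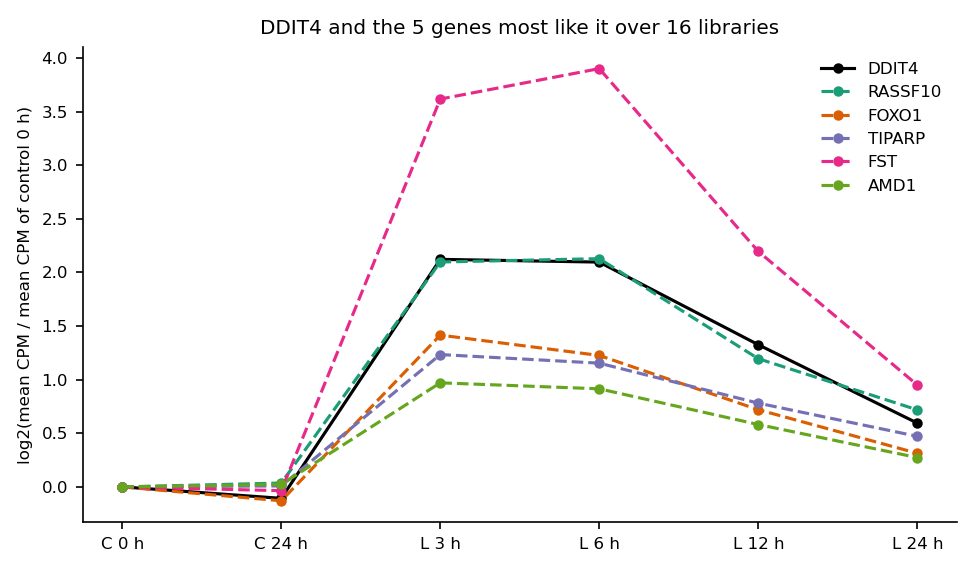
Log2 ratio of the mean CPM of each group to that of control 0 h, for DDIT4 (solid line) and the 5 genes most like it, with the 6 groups along the x axis (C, control; L, latrunculin B); the lines join group means and show no error. All 6 genes are highest at 3 h or 6 h and lower at 12 h and 24 h, and FST has the largest log2 range.

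The rest of the pathway was read from 9 lists of mTOR pathway genes, 80 in all, of which 78 were tested. At 12 h 20 were higher and 15 lower, 44.9% against 35.8% of all genes, and at 24 h 24 were higher and 13 lower, 47.4% against 40.8%, with medians of 0.04 and 0.03 on the log2 scale. Those shares of all genes count both directions together, so none stands beside a direction of calls. The lysosomal branch that brings mTORC1 to Rheb held 13 genes of the Rag GTPases, Ragulator and folliculin. It had 7 genes higher and none lower at 12 h, with a median of 0.21. At 24 h it had 6 higher and none lower, near the 40.8% of all genes, with a median of 0.19. In it the largest call at 12 h was FLCN, folliculin, an activator of RagC and RagD (log2 fold change 0.57, SE 0.08, adjusted p = 0.000165 by edgeR), and at 24 h RRAGA, a Rag GTPase (0.55, SE 0.07, adjusted p = 5.17e-05 by edgeR). At the times that chose the set, 4 genes of the list passed the threshold higher and 1 lower at 3 h (31.6% of all genes passed), and 9 higher and 1 lower at 6 h (43.3% of all genes), with FLCN at 1.07 and 1.10, from which nothing is read. Without replicate 2 of 12 h the list again had 7 higher and 0 lower.

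Of all genes, 35.8% were called at 12 h and 40.8% at 24 h, and counts near these shares are no result about a list. These shares count both directions together, so none stands beside a direction of calls. Upstream kinases and phosphatases, 15 genes of the PI3K, AKT and AMPK arms, had more calls lower than higher. At 12 h 1 was higher and 9 lower, and at 24 h 1 higher and 7 lower. The medians of the list were -0.22 at both times, against 0.01 for all genes tested. Without replicate 1 of 12 h the 12 h counts were 3 higher and 7 lower, and without replicate 2 they were 1 higher and 7 lower. With all libraries, the 1 that rose was PIK3R1, the regulatory subunit of PI3K, by 1.16 (SE 0.08, adjusted p = 6.6e-07 by edgeR) at 12 h and 0.90 (SE 0.09, adjusted p = 7.54e-06 by edgeR) at 24 h. Among 10 subunits and assembly factors of the mTOR complexes, 2 were higher and 2 lower at 12 h, and 6 higher and 2 lower at 24 h. PRR5, a subunit of mTORC2, had the largest call at 24 h (-0.92, SE 0.13, adjusted p = 0.000141 by edgeR), and PRR5L, its relative, at 12 h (1.64, SE 0.40, adjusted p = 0.00621 by edgeR). GATOR1 and KICSTOR, the arm that restrains the Rag GTPases, had 1 of 7 higher at 12 h (DEPDC5, 0.33, SE 0.07) and 2 higher at 24 h (KPTN the larger, 0.75, SE 0.15), with none lower. GATOR2 had 1 of 5 higher and 3 lower at 12 h (WDR59 the largest, -0.32, SE 0.09) and 1 higher at 24 h (SEC13, 0.22, SE 0.07). That count fell to 0 and 0 by edgeR without replicate 2 of 12 h.

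The same shares of all genes, 35.8% at 12 h and 40.8% at 24 h, stand beside the counts that follow. Among 4 amino acid sensors, 2 were higher at 12 h, with the sestrin SESN2 the larger (0.60, SE 0.16, adjusted p = 0.0121 by edgeR), and 2 were lower at 24 h, with the arginine sensor CASTOR1 the larger (-1.17, SE 0.29, adjusted p = 0.00529 by edgeR). Of 14 downstream effectors, 3 were higher and 1 lower at 12 h and 2 higher and 2 lower at 24 h, led by PDCD4, an inhibitor of translation (0.40, SE 0.07), and LPIN1, lipin (-0.42, SE 0.13). The balance at 12 h rested on single libraries, with 1 higher and 2 lower without replicate 1 and 3 higher and 3 lower without replicate 2. Of 9 tested genes for partners of DDIT4 and for its turnover, 3 were higher at 12 h and 6 at 24 h, with none lower, led by DDB1, a part of a ubiquitin ligase (0.29, SE 0.04), and the adaptor YWHAQ (0.41, SE 0.06). TBC1D7, the third subunit of the TSC complex and the 1 tested gene of its list, was at -0.21 at 12 h and -0.12 at 24 h, not called.

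DDIT4 is known to respond to glucocorticoids, hypoxia, p53, FOXO factors and the ATF4 arm of the stress response, and 5 lists of genes known for the same were read beside it, 50 genes of which 48 were tested. At 12 h 17 were higher and 4 lower (43.8%, against 35.8% of all genes), and at 24 h 10 were higher and 9 lower (39.6%, against 40.8%). Of 10 glucocorticoid-responsive genes, 1 was higher and 2 lower at 12 h, and 2 higher and 2 lower at 24 h. MT2A, a metallothionein whose close relatives may share its reads, had the largest change at both times (3.33, SE 0.43, and 1.72, SE 0.48). Of 9 hypoxia-responsive genes, 2 were higher at 12 h, and 1 higher and 2 lower at 24 h. PFKFB4, an enzyme of glycolysis, led both (0.58, SE 0.16, and 0.89, SE 0.16).

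Of all genes, 35.8% were called at 12 h and 40.8% at 24 h, and here too counts near these shares are no result about a list. Of 10 p53 targets, 6 were higher at 12 h and 2 at 24 h, with none lower, led by GDF15 at 12 h (1.38, SE 0.40) and BTG2 at 24 h (0.71, SE 0.09). The 12 h count rested on 1 library: without replicate 2, 1 was higher and 1 lower, and without replicate 1, 9 were higher. Of 10 ATF4-responsive genes, 5 were higher and 1 lower at 12 h, led by CHAC1 (1.01, SE 0.26), but 1 higher and 3 lower without replicate 2, and 2 were higher and 2 lower at 24 h, led by ATF3 (1.20, SE 0.12). Of 9 FOXO-responsive genes, 3 were higher and 1 lower at 12 h and 3 higher and 3 lower at 24 h. IGFBP1, a secreted binder of insulin-like growth factors, had the largest change at both times (2.52, SE 0.44, and 1.66, SE 0.50). At 3 h and 6 h, the times that chose the set, 31.6% and 43.3% of all genes passed the threshold, and nothing is read from the counts of the lists. These counts, higher and lower, were 3 and 1, then 4 and 2 for glucocorticoids, 5 and 1, then 4 and 1 for hypoxia, 0 and 1, then 0 and 3 for p53, 5 and 1, then 6 and 1 for FOXO, and 5 and 2, then 6 and 1 for ATF4.

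**Figure D5:**
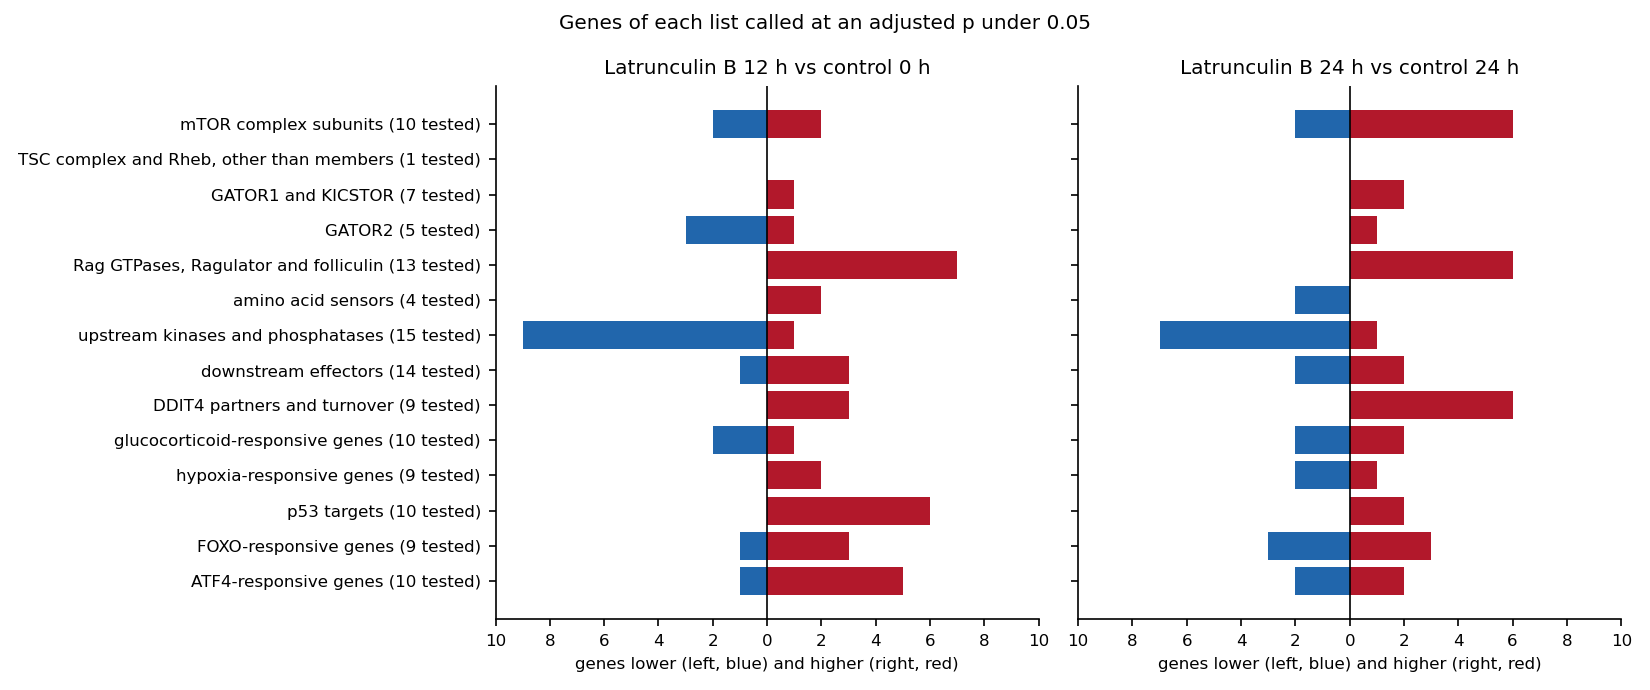
Number of genes of each of 14 lists called at an adjusted p under 0.05 by edgeR at 12 h (left panel) and 24 h (right panel), with genes higher under latrunculin B to the right in red and genes lower to the left in blue; the number tested is beside each name. Rag GTPases, Ragulator and folliculin have 7 and 6 genes higher and none lower, and upstream kinases and phosphatases 9 and 7 lower. In either direction, 35.8% of all genes were called at 12 h and 40.8% at 24 h.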

How the data were processed

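RNA-seq of 16 libraries was analysed from the transcript tables the authors deposited. The submitters' processing notes name Salmon 1.3.0, DESeq2 and hg38, while the methods of the study describe STAR alignment, so the route to each table is not certain. Strand use in the counting is not given in the sources used here. The deposited estimated counts (NumReads) and deposited TPM values of 177456 transcripts per library were summed per gene through GENCODE release 44 on GRCh38; 165533 transcripts matched by identifier without the version. The rest held 2.92 to 3.17% of reads and were left out. Exons of DEPTOR (9.59% of exonic bases), SESN1 (4.99%), TSC2 (3.82%) and 5 further genes of the set overlap exons of other genes, so reads there may be misassigned. A table of the authors' own fold changes and p-values, with 16 columns of per-library values, was not used.

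Estimated counts were rounded to whole numbers and tested with edgeR 4.0.16 in R 4.3.3 (quasi-likelihood, two-sided, 6 groups in 1 fit, TMM factors 0.947 to 1.05, filterByExpr), with Benjamini-Hochberg adjustment over 16705 genes and calls at an adjusted p under 0.05. Totals of 23609727 to 33515398 reads set the precision. SE is the log2 fold change divided by the square root of F. CPM uses TMM-scaled totals, and TPM and CPM are given as mean ± SD. Transcript shares were compared by an exact permutation test over libraries. The edgeR step was tested on simulated counts. The 10 genes, the 14 lists (130 genes) and the tests were chosen with earlier results of these data known. Genes named were the 10, the gene of each list with the largest change among those called, and the 5 genes most correlated with DDIT4. Alternatives were DESeq2 1.42.0, RLE or no scaling, no filter or a mean of at least 50 counts, a length offset, a replicate block, only the compared groups, limma 3.58.1 on log2(TPM + 1) and log2(TPM + 0.1), a threshold of 0.01, the other control as reference, and leaving out each library. List counts without each 12 h library were added after seeing the data.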

Additional observations from a re-analysis of the deposited data

Results flagged for a closer look

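The effect of LatB on DDIT4 differed between 24 h and 12 h by -0.62 on the log2 scale (SE 0.16), and the difference itself was tested (edgeR, adjusted p = 0.0433). The effect at 24 h was measured against control 24 h. That at 12 h was measured against control 0 h, which is not matched in time. Control 0 h also served the 3 h and 6 h values that chose the set. In the other fits the difference ran from -0.72 to -0.56, and 9 of all 22 fits called it. It was not called without replicate 1 of 12 h (adjusted p = 0.0535), without any 1 of the control libraries (adjusted p = 0.0635 to 0.16), or without replicate 2 or 3 of 24 h (adjusted p = 0.0805 and 0.0922).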

How the results depend on the processing

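DDIT4 kept its call at 12 h and 24 h, SESN1 at 12 h and AKT1S1 at 24 h under every alternative tried. Of the 10 genes, 4 were called at 12 h and 2 of them when the fit held the compared groups alone. That fit called 2828 of 15773 genes, against 5988 of 16705 in the main fit. SESN3 at 12 h gained a call with DESeq2 and with a length offset. TSC22D3 at 12 h gained one with RLE or no scaling, at a mean of at least 50 counts and in both limma fits. The 5 calls at 24 h became 3 with a length offset, with either limma fit on TPM and against control 0 h, and 2 at a threshold of 0.01. Of 16705 genes these settings called 5097, 4799 and 4752, 7091, and 4484, against 6809 in the main fit. DEPTOR at 24 h gained a call with DESeq2 and with no scaling. The calls at 24 h that changed when 1 library was left out stand with each gene. The 2 calls from 12 h to 24 h of LatB became 1 with a length offset, with the replicate block, with either limma fit and at 0.01. They became 0 with the compared groups alone, a fit that called 0 of all 15955 genes it tested. The main fit called 1952 of 16705 genes there. DEPTOR gained a call with DESeq2, with no scaling, with no filter and without replicate 1 of 24 h, and RHEB with no scaling. Calls also changed without other single libraries. The 1 call for the difference of effects became 2 with DESeq2, and 0 with a length offset, with the replicate block, with either limma fit and at 0.01. Of 16705 genes these settings called 1219, 261, 162, 151 and 135, and 76, against 724 in the main fit. Leaving out 1 library also changed the calls for this difference.

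Several values that were not called turned direction and were not called under the alternative. TSC1 at 12 h was -0.0627 with a length offset, -0.0606 and -0.0634 by limma (pseudocounts 1 and 0.1), -0.0624 against control 24 h, and -0.0419 to 0.0925 leaving out 1 library (-0.0365 without replicate 1 of control 0 h). At 24 h it was -0.226, -0.234 and -0.245 in the first 3 of these and -0.0896 to 0.157 leaving out 1 library. RHEB at 24 h was -0.0035 with no filter, -0.0018 at a mean of at least 50 counts, -2.75e-05 with the replicate block, -0.0478 against control 0 h and -0.0141 to 0.0486 leaving out 1 library. At 12 h, leaving out 1 library gave -0.65 to 0.0020 for DDIT4L, and -0.045 to 0.74 for SESN3, whose 0.74 was called. The share of TSC22D3-205 differed by -0.31 to 3.74 points at 12 h and -1.65 to 2.84 points at 24 h leaving out 1 library, and by -0.19 points at 24 h as a share of reads. The share of RHEB-204 at 12 h differed by -3.23 to 0.65 points leaving out 1 library. The cause of these shifts was not tested.

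Same-numbered libraries of different groups did not deviate together from their group means (median correlation -0.015 over 36 pairs, against 0.006 over 70 pairs of unlike number). In groups of 2 libraries these deviations mirror each other, so the check found no pairing by replicate number but cannot exclude it. With the replicate block TSC2 at 24 h, SESN1 from 12 h to 24 h and the DDIT4 difference lost their calls (adjusted p = 0.0922, 0.0817 and 0.0512). Lists were also counted without replicate 1 and without replicate 2 of 12 h, a choice made after seeing the data that leaves 1 library in the group. The counts of the glucocorticoid and hypoxia lists, the amino acid sensors, and GATOR1 and KICSTOR each moved in at least 1 of these fits. Such counts are no result about a list.

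Groups of 2 libraries and a control of 0 h that serves 3 time points limit these results, and time in culture and LatB cannot be told apart at 12 h. Reads were estimated per transcript by a program, so the shares of transcripts carry an error that the libraries do not show. DDIT4L, with 76 to 236 reads, was the least precisely measured. The values are RNA levels, and no protein or kinase activity was measured.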
